A study of Homo sapiens
Mus musculus and Mus musculus and Homo sapiens with 16 samples.

Results

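RN7SL1, RN7SL2, RN7SK, RMRP and RPPH1 are genes for small structured RNAs that RNA polymerase III transcribes. They were taken by symbol from the human gene counts of REC-1, a mantle cell lymphoma (MCL) line, and they were selected on values of these same libraries, in which RN7SL2 had been seen lower in adherent cells. The 5 symbols stood on 8 of 58051 human gene entries, and 1 of these 8 held any count. That entry was RN7SL2. It had 3066 counts over 12 REC-1 libraries and a lower mean level in adherent cells than in both other groups. Adherent libraries overlapped in level with those of cells grown alone. Whether the difference from cells in suspension met the threshold given below depended on single libraries. RN7SL1, RN7SK, RMRP and RPPH1 were listed at 0 in each library.

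REC-1 cells were grown alone (Sep) or for 24 h with MS-5, a mouse bone marrow stromal line, and poly(A)-selected RNA was sequenced. The coculture gave REC-1 cells in suspension (Susp) and REC-1 cells adhered to the MS-5 layer (Adh), and MS-5 cells were also grown alone. Each of these 4 groups had 4 libraries, and no group carried a drug or genetic change. The Adh libraries held RNA of both species, which the authors separated by sequence, and the human part was 28.2%, 26.0%, 18.3% and 20.2% of the counts in Adh replicates 1 to 4. Both lines are single established lines. The study describes the REC-1 libraries of a group as independent experiments, and the labels do not say whether the libraries of MS-5 cells alone came from separate cultures.

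Human counts per library ranged from 9325412 to 12597891 in Sep, from 15000927 to 21467832 in Susp and from 7758979 to 13241751 in Adh libraries. In the human counts, all 7 B cell and MCL markers checked averaged at least 1 CPM (the count divided by the library's total in units of 1000000 counts) in each REC-1 group, and 0 of 7 stromal markers did, with a summed stromal level of 0.659 to 2.05 CPM per library. In the mouse counts all 7 stromal markers did so in both groups and 0 of 5 B cell markers did. Identical counts were found for 0 pairs of libraries.

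The 7SL RNA, made from RN7SL1 and RN7SL2, is the scaffold of the signal recognition particle (SRP), which binds signal peptides as they leave the ribosome and brings the ribosome to the endoplasmic reticulum. The 7SK RNA from RN7SK holds the kinase P-TEFb in an inactive complex with HEXIM and LARP7 proteins and so limits the release of paused RNA polymerase II. RMRP is the RNA of RNase MRP, which cuts precursor ribosomal RNA, and RPPH1 is the catalytic RNA of RNase P, which trims the leader of precursor tRNA. These RNAs end in a short run of U rather than a poly(A) tail, so selection with poly-T beads is not made to capture them. Their counts are therefore not a measure of cellular abundance, and how their reads reached the libraries was not tested.

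The likeness of the 7SL genes is given first because near-identical copies limit which reads can be assigned. RN7SL2 (ENSG00000274012) lies at GRCh38 chr14:49862550-49862849 on the minus strand. RN7SL1 (ENSG00000276168) lies at chr14:49586580-49586878 on the plus strand. RN7SL3 (ENSG00000278771, chr14:49853616-49853914, minus strand), which the count table names Metazoa_SRP, is another full-length copy. The mouse copy Rn7s1 (ENSMUSG00000099021) lies at GRCm38 chr12:69159295-69159594 on the plus strand. RN7SL2 and RN7SL1 were identical at 295 of 300 aligned positions, or 98.3%. RN7SL2 and RN7SL3 were identical at 288 of 300, or 96.0%. The mouse genes Rn7s1 and Rn7s2 were identical to each other at all 300 positions, and RN7SL2 was identical to either at 293 of 300, or 97.7%. Its identity to the shorter mouse gene Rn7s6 was 83.6%. Human 7SL was thus about as like Rn7s1 and Rn7s2 as its own copies, and less like Rn7s6. RN7SK and mouse Rn7sk were identical at 326 of 332 aligned positions, or 98.2%, whereas RMRP and RPPH1 had 81.0% and 79.7% identity to mouse Rmrp and Rpph1.

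The authors kept reads that map to 1 place in the genome, so each RNA was cut into windows of 100 bases, about the length of a sequenced read, and exact copies of each window were counted over both strands of 25 human chromosomes. Of 201 windows of RN7SL2, 36 (17.9%) occurred once, namely those starting at bases 1 to 10 and 176 to 201. The other windows occurred up to 4 times. RN7SL1 had 51 single windows of 200 (25.5%), RN7SL3 had 176 of 200 (88.0%) and RN7SK had 110 of 229 (48.0%). All 165 windows of RMRP and all 234 windows of RPPH1 occurred once. RN7SL2 thus had counts although few of its windows were single, and RMRP and RPPH1 were listed at 0 although every window was.

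**Figure D1:**
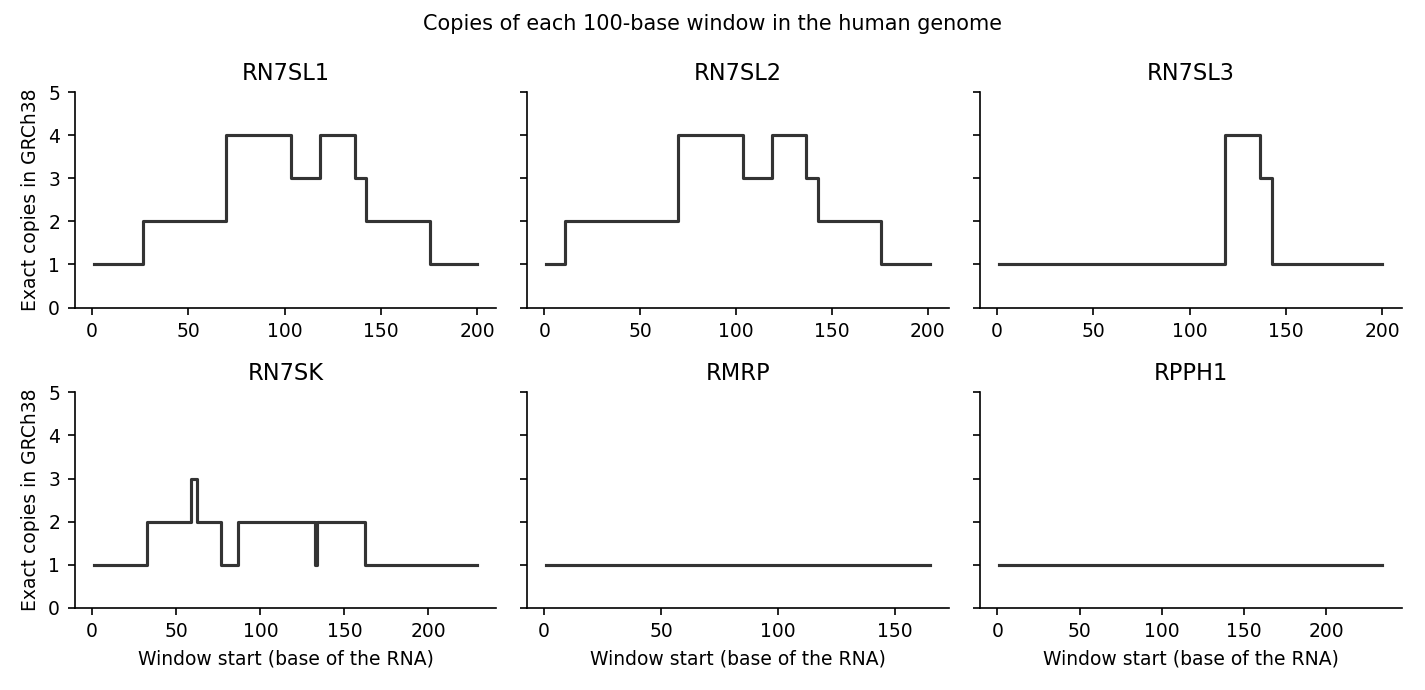
The x axis is the first base of each 100-base window in the RNA and the y axis is the number of exact copies of that window in GRCh38, for 6 RNAs. RN7SL1 and RN7SL2 reach 4 copies in their middle, RN7SL3 reaches 4 copies in 1 short stretch, RN7SK reaches 3, and RMRP and RPPH1 stay at 1 copy throughout.

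RN7SL1 had 2 entries (ENSG00000276168 and ENSG00000283029), both listed at 0 in all 12 REC-1 libraries. The first lies in an intron of RPS29, on the opposite strand. The second has no position in the annotation used here. RN7SK (ENSG00000283293, chr6:52995621-52995948, plus strand) was listed at 0, and all its 328 bases lie in an exon of a second entry, named 7SK (ENSG00000202198), on the same strand. This entry and the other entries named 7SK, 7 in all, were also listed at 0. The gene that sequesters P-TEFb therefore had no count under either name.

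RPPH1 (ENSG00000277209, chr14:20343075-20343407, minus strand) was listed at 0, and all its 333 bases lie in an exon of a second entry with the symbol RPPH1 (ENSG00000259001), likewise at 0. RMRP (ENSG00000277027, chr9:35657754-35658017, minus strand) also had a second entry with its symbol (ENSG00000269900), and both were at 0. A count of 0 allows up to 3 counts, which is 0.140 CPM in the deepest and 0.387 CPM in the shallowest of the 12 libraries. If both mates of a pair were counted, the limit is 6 counts, or 0.279 and 0.773 CPM. These limits cover counting error among assigned reads only.

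The counting program leaves out reads that overlap more than 1 gene unless it is told otherwise, and the setting used is not given in the sources used here. Overlaps were read from GENCODE release 44, a later annotation than that of the authors. Of the small RNA entries whose every exon base is shared with another entry, 89.6% of 482 were at 0 in all 12 libraries, against 79.9% of 4464 that share no exon base. Over all classes these shares were 87.8% of 1699 and 57.7% of 40745 entries. All 300 bases of RN7SL2 also lie in an exon of another entry, a long noncoding RNA (ENSG00000282885, RP11-596C23.6 in the table) with between 0 and 10 counts per library. The part of shared annotation in the counts of the 5 genes was not tested.

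RN7SL2 had 130, 349, 396 and 333 counts in Sep replicates 1 to 4. It had 327, 479, 462 and 358 counts in the Susp libraries. In the Adh libraries it had 48, 27, 111 and 46 counts. Low counts were thus found in every Adh library, with the highest of them in replicate 3, and Sep replicate 1 was well below the other Sep libraries.

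On the CPM scale, with library sizes scaled by the trimmed mean of M values (TMM), RN7SL2 was at 10.2, 29.2, 41.4 and 26.6 CPM in Sep replicates 1 to 4. The Susp libraries were at 21.7, 29.4, 22.3 and 24.0 CPM. The Adh libraries were at 3.61, 2.60, 14.3 and 5.90 CPM. All Adh libraries were below all Susp libraries, whereas Adh replicate 3 was above Sep replicate 1, so Adh and Sep overlapped. How many of all genes had such a separation of Adh and Susp libraries was not counted. Adh replicate 3 had the smallest human share of the Adh libraries (18.3%), and replicate 2, the lowest for RN7SL2, had 26.0%.

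**Figure D2:**
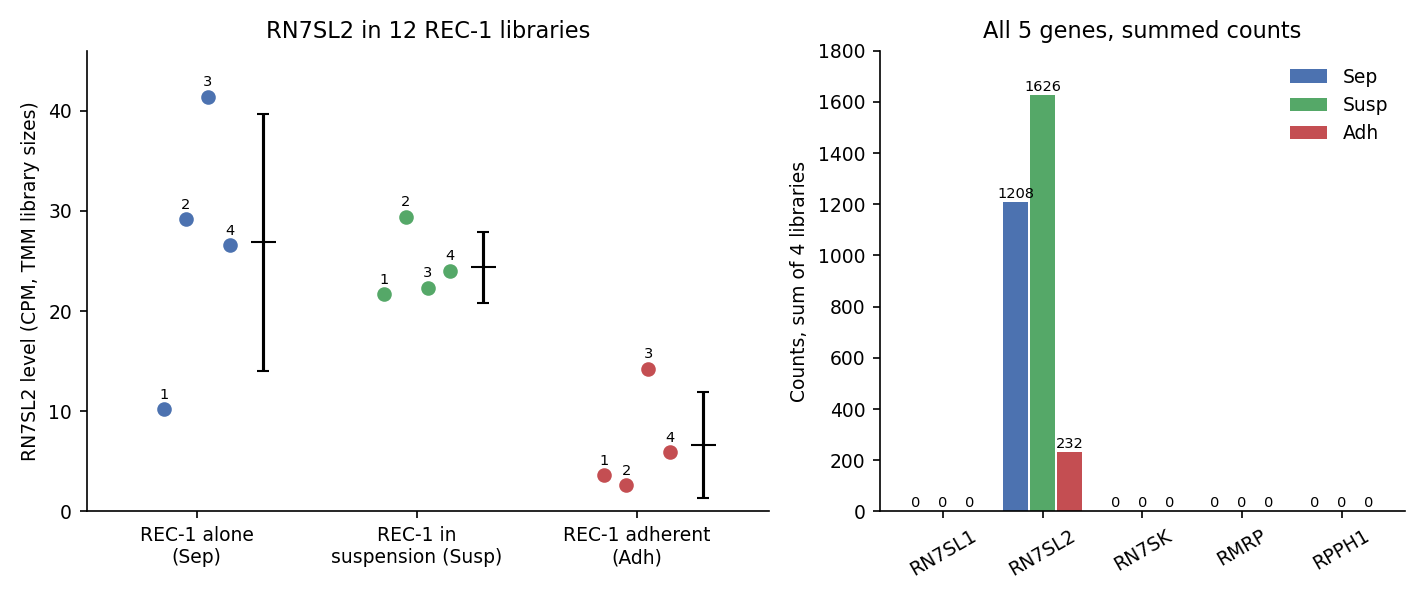
Left, RN7SL2 in CPM (y axis) for the 4 libraries of each REC-1 group (x axis), with the replicate number above each point and the mean ± SD as a bar. Right, counts of each of the 5 genes summed over the 4 libraries of a group, where RN7SL2 has 1208 in Sep, 1626 in Susp and 232 in Adh libraries and the other 4 genes have 0.

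The mean level of RN7SL2 was 26.9 ± 12.8 CPM (SD, n = 4) in Sep, 24.4 ± 3.52 CPM (SD, n = 4) in Susp and 6.59 ± 5.30 CPM (SD, n = 4) in Adh cells. Between Adh and Susp cells its log2 fold change was -1.95 (SE 0.42), a 3.86-fold lower level. Against Sep cells it was -2.08 (SE 0.43) in Adh cells, a 4.23-fold lower level, and -0.13 (SE 0.37) in Susp cells. These contrasts share libraries. A call needed a 1.5-fold difference or more together with an edgeR adjusted p-value no higher than 0.05. RN7SL2 was 1 of 5 symbols with enough counts to be fitted, and it was called lower in Adh than in Susp and in Sep cells. Of all 12861 genes fitted, 0.669% were called lower in Adh than in Susp cells and 1.82% lower in Adh than in Sep cells. Between Susp and Sep cells, 0.731% were called in either direction, and RN7SL2 was not among them in edgeR (0 of 1, also at an unadjusted p under 0.05) or in DESeq2. RN7SL2 was listed with these contrasts known, so its values describe it and are not a test.

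The call between Adh and Susp cells rested on single libraries. It was lost when Sep replicate 2, Susp replicate 3 or 4, or Adh replicate 1, 2 or 4 was left out, with log2 fold changes of -1.95, -1.99, -1.95, -1.72, -1.67 and -1.92. Without Adh replicate 3 it was kept at -2.63. The call between Adh and Sep cells was kept without any 1 of the 12 libraries. In these bulk samples, a lower level in all REC-1 cells and a lower level in some of them cannot be told apart.

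The spread of RN7SL2 between replicates was large for its level. Its coefficient of variation was 47.8% in Sep, 14.4% in Susp and 80.3% in Adh cells. Counting error alone gives 5.75%, 4.96% and 13.1% at these counts, or 8.14%, 7.01% and 18.6% if both mates of a pair were counted. The SD of log2 CPM, with 0.5 added to each CPM, was 0.84 in Sep and 0.98 in Adh cells. These lay at percentiles 99.9 and 100 of 1625 genes within 0.5 log2 units of its mean level. The median SDs of those genes were 0.18 and 0.19. In Susp cells the SD of RN7SL2 was 0.20, at percentile 51.1. The biological coefficient of variation fitted by edgeR was 39.5%, against a median of 13.8% for those genes. RN7SL2 thus varied far more than its neighbours in level among Sep and among Adh libraries, and about as much as they did among Susp libraries.

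Levels per length, in RPKM (CPM per kilobase) over its 300 bases, were 89.5 ± 42.8 in Sep, 81.3 ± 11.7 in Susp and 21.98 ± 17.7 in Adh cells (SD, n = 4 each). This put the mean of RN7SL2 at percentile 98.6, 98.2 and 90.4 of the genes with any count in the group. The order of levels was Sep, Susp and Adh, and Sep and Susp did not differ beyond their spread.

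RN7SL2 shared more of its sequence with mouse transcripts than any other fitted gene. Of its windows of 25 bases, 68.5% occur in a mouse transcript, and it was the 1 gene of 12745 with a transcript sequence for which this share reached 50%. Of its 201 windows of 100 bases, 106 occur in a mouse 7SL gene. None of its 36 windows that are single in the human genome does. The 713 genes with a share between 10% and 50% had a median log2 fold change of 0.02 between Adh and Susp cells, with 1 call, and the 12031 genes under 10% had a median of -0.01, with 97 calls. Of the REC-1 groups, only Adh is labelled as holding MS-5 cells, and the part of the species separation in the lower RN7SL2 level was not tested.

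The human genome has many 7SL pseudogenes, and their entries took counts of their own. Of 4398 counts on 850 entries named for 7SL, RN7SL2 had 69.7%. Its share was 56.0%, 63.7%, 79.2% and 72.4% in Sep replicates 1 to 4. In the Susp libraries it was 74.0%, 81.2%, 74.9% and 73.7%, and in the Adh libraries 32.9%, 25.5%, 61.7% and 50.5%. Adh replicate 3 again lay highest, above Sep replicate 1, and no Adh library reached the lowest Susp share. The 95% Wilson intervals were 18.1% to 34.5% for the lowest Adh library, 54.4% to 68.5% for the highest, and 69.6% to 77.4% for the lowest Susp library. They cover counting error only, and PCR copies or mates counted separately would widen them.

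RN7SL3 had between 0 and 15 counts per library. The 677 entries of 7SL pseudogenes, 152 of them with counts, summed to 9.33 ± 2.74 CPM in Sep, 5.72 ± 0.868 CPM in Susp and 5.65 ± 0.691 CPM in Adh cells (SD, n = 4 each, CPM of total counts). Adh and Susp libraries overlapped, with a ratio of 0.988 between their means. The entries of RN7SL1, RN7SL2 and the 7SL pseudogenes were also summed into 1, without those named Metazoa_SRP, RN7SL3 among them. The log2 fold change of this sum between Adh and Susp cells was -1.32, against -1.95 for RN7SL2 alone. The sum was still called.

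**Figure D3:**
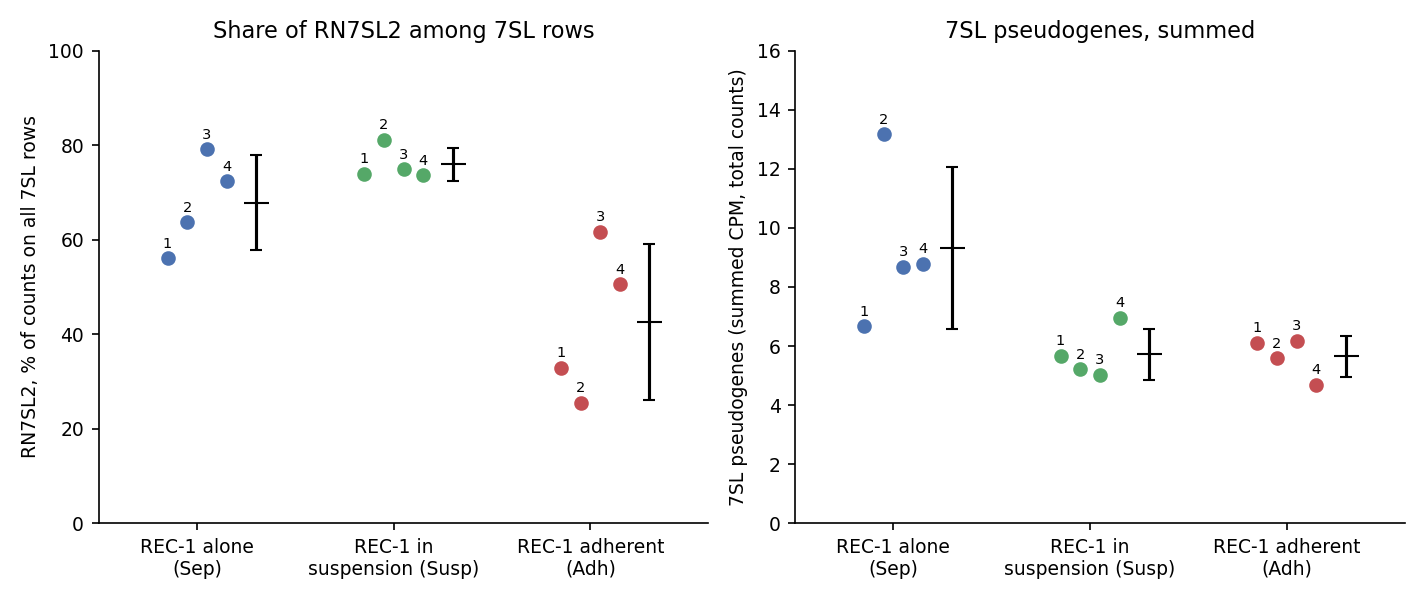
Left, RN7SL2 as a percentage of the counts on all entries named for 7SL, and right, the summed CPM of 7SL pseudogenes, for each library of the 3 REC-1 groups with the replicate number and the mean ± SD. The Adh shares lie between 25.5% and 61.7%, below all Susp shares, whereas the pseudogene sums of Adh and Susp libraries overlap.

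Entries of other classes of RNA that mostly lack a poly(A) tail were summed per class and library and set beside RN7SL2. How reads of these entries reached the libraries was not tested. H/ACA small nucleolar RNAs, which guide pseudouridylation, summed to 21.1 ± 4.87 CPM in Sep, 17.1 ± 1.97 CPM in Susp and 10.5 ± 0.663 CPM in Adh cells (SD, n = 4 each). Their log2 difference between Adh and Susp was -0.70. C/D small nucleolar RNAs, which guide ribose methylation, summed to 17.5 ± 4.52, 16.8 ± 1.87 and 10.6 ± 2.21 CPM, a log2 difference of -0.67. Entries for the spliceosomal U1, U2, U4 and U5 RNAs summed to 2.87 ± 1.21, 2.34 ± 0.345 and 1.29 ± 0.555 CPM, a ratio of 0.551 between Adh and Susp means. In these 3 classes every Adh library was below every Susp library. The share of all genes separated in this way was not counted.

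The other classes named for RNA polymerase III RNAs were taken by symbol, pseudogenes included. Over 1319 entries named for U6, the mean sums in Sep, Susp and Adh cells were 8.83, 6.06 and 4.57 CPM. Over 761 Y RNA entries they were 9.58, 6.90 and 5.46 CPM, and for 7SK pseudogenes 2.60, 1.36 and 1.08 CPM. Adh and Susp libraries overlapped in each of them. Small Cajal body RNAs were at 2.09, 1.27 and 1.03 CPM. Replication-dependent histone genes, a class whose mRNAs mostly lack the tail, were at 75.2, 91.5 and 92.8 CPM. HIST1H2BK held 5068 of their 13263 counts, and whether these reads came from mRNAs without a tail was not tested. The summed histone level was not lower in Adh than in Susp cells. Vault RNAs had 1 count in all and the telomerase RNA 0 in 12 libraries.

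Two-sided exact permutation tests on mean log2 CPM were run for 10 classes in the 3 comparisons, 30 in all. Groups of 4 against 4 cannot give a p below 0.0286, and no test passed after Benjamini-Hochberg adjustment over the 30 (smallest adjusted p = 0.107 by permutation). With this floor, a test could pass only if most of the 30 tests reached it together. The lack of a pass therefore does not show that the classes had equal levels. The difference of RN7SL2 between Adh and Susp cells was larger than that of any of the 10 classes, among which the U1, U2, U4 and U5 entries had the lowest ratio and the histone genes, at 1.01, the highest. RN7SL2 is a single entry that was selected as lower in Adh cells of these libraries, and the classes are sums over many entries. Its place in this order is therefore a description, and the difference between RN7SL2 and the classes was not tested.

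**Figure D4:**
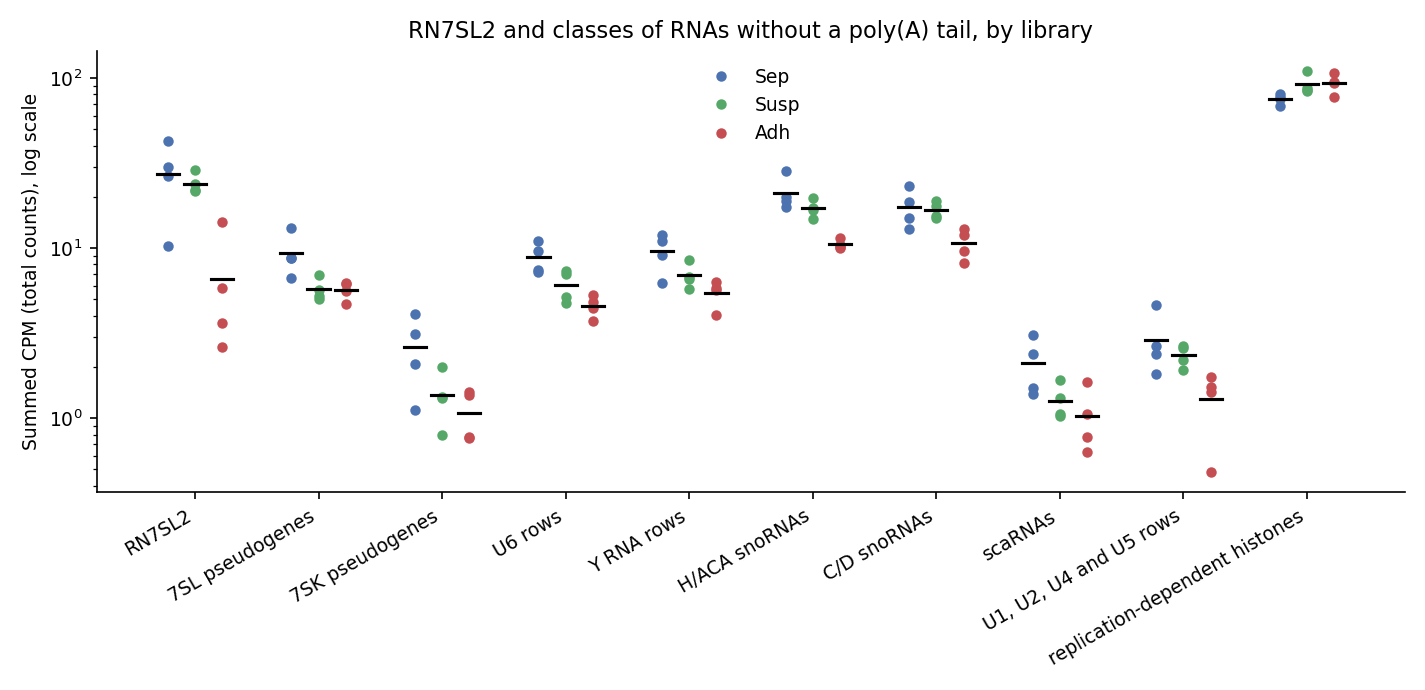
Summed CPM on a log axis for RN7SL2 and 9 of the 10 classes, with 1 point per library and the group mean as a black line. Adh libraries lie below all Susp libraries for RN7SL2, both small nucleolar RNA classes and the U1, U2, U4 and U5 entries, and overlap with them in the other 6 classes.

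Genes whose products bind or transcribe the 5 RNAs were read from 5 lists, 60 genes of which were fitted in REC-1 cells. edgeR called 0 of the 60 in any of the 3 comparisons, beside 0.778%, 0.731% and 2.4% of all genes in either direction between Adh and Susp, Susp and Sep, and Adh and Sep cells. An unadjusted edgeR p-value under 0.05 was reached by 5, 6 and 9 of them. The share of all genes that reached it was not counted, here or for the mouse partner genes. DESeq2 called 0 as well. Median log2 fold changes over the 60 were 0.05, 0.04 and 0.08, beside -0.005 for all genes between Adh and Susp cells.

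The SRP proteins and their receptor, which act with 7SL RNA, had a median log2 fold change of 0.17 between Adh and Susp cells over 8 genes, from -0.05 to 0.29. SRP72, the most abundant of them at 333.8 CPM, had 0.21. None of these 8 genes was called in the comparison in which RN7SL2 was. Proteins of the 7SK particle and P-TEFb had a median of -0.15 over 7 genes, with MEPCE, the enzyme that caps 7SK, at -0.14. RNase P and RNase MRP proteins had a median of -0.01 over 12 genes, with POP1, a large shared subunit, at -0.09.

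RNA polymerase III subunits and La had a median of 0.10 over 14 genes. SSB, which encodes La, the protein that binds the U-rich ends of new polymerase III transcripts, had 0.26. RNA polymerase III transcription factors had a median of 0.05 over 19 genes, with GTF3A, the factor for 5S RNA genes, at 0.05. All of these are differences in level on the log2 scale between Adh and Susp cells and none was called.

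Over the 12 REC-1 libraries, the log2 CPM of RN7SL2 was most like that of PGGHG (Pearson r = 0.919), CCNL2 (r = 0.907) and PPP1R18 (r = 0.895), among 8492 genes with a mean of at least 10 CPM. These values share the group differences and the depth of the libraries and are a description. With group means removed, r was 0.722, 0.731 and 0.628. PGGHG was at 21.7, 23.3 and 9.98 CPM in Sep, Susp and Adh cells, CCNL2 at 183.7, 188.5 and 120.1 CPM and PPP1R18 at 98.5, 98.0 and 82.4 CPM.

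The mouse counterparts were read in MS-5 cells alone and in the mouse part of the Adh libraries, where mouse counts ranged from 10097555 to 17397651 and from 29495404 to 34615602. Rn7s1, Rn7s2 and Rn7s6, the mouse 7SL genes, were listed at 0 in all 8 libraries. Rn7s1 and Rn7s2 share every base, so none of their windows is single in the mouse genome. Rn7sk had 16, 8, 16 and 10 counts in MS-5 cells alone and 14, 18, 30 and 2 in the coculture. Unlike human RN7SK, mouse 7SK therefore had counts, although few.

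Rn7sk was at 1.12, 0.796, 0.926 and 0.782 CPM in MS-5 cells alone and at 0.413, 0.613, 0.863 and 0.0635 CPM in the coculture. The means were 0.905 ± 0.155 CPM and 0.488 ± 0.338 CPM (SD, n = 4 each), and the libraries overlapped. The log2 fold change was -0.89 (SE 0.51, edgeR adjusted p = 0.547), lower in 3 of 4 coculture libraries than in any library of MS-5 cells alone. It was not called, in a comparison where 0.205% of 12201 genes were (0 of 1 counterpart fitted, 0 at an unadjusted p under 0.05, and 0 by DESeq2). Coculture replicate 4, with 2 counts, lay lowest.

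Rpph1 had 2, 2, 4 and 4 counts in MS-5 cells alone and 0, 4, 0 and 4 in the coculture, and Rmrp had 0, 0, 1 and 2 and then 0, 1, 0 and 1. Both were too low to be fitted, and their differences were not tested. Rpph1 was at 0.139, 0.199, 0.231 and 0.313 CPM in MS-5 cells alone and at 0, 0.136, 0 and 0.127 CPM in the coculture, whose mouse counts were deeper. The Rpph1 groups did not overlap, with means of 0.221 ± 0.0723 and 0.0658 ± 0.0761 CPM (SD, n = 4 each). Their nearest libraries, at 0.139 CPM alone and 0.136 CPM in the coculture, held 2 and 4 counts. The share of all mouse genes without overlap was not counted. The Rmrp groups overlapped. No count of either gene exceeded 4. Of the mouse genes for the same protein partners, 57 were fitted and edgeR called 0, with 4 at an unadjusted p under 0.05. DESeq2 also called 0.

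**Figure D5:**
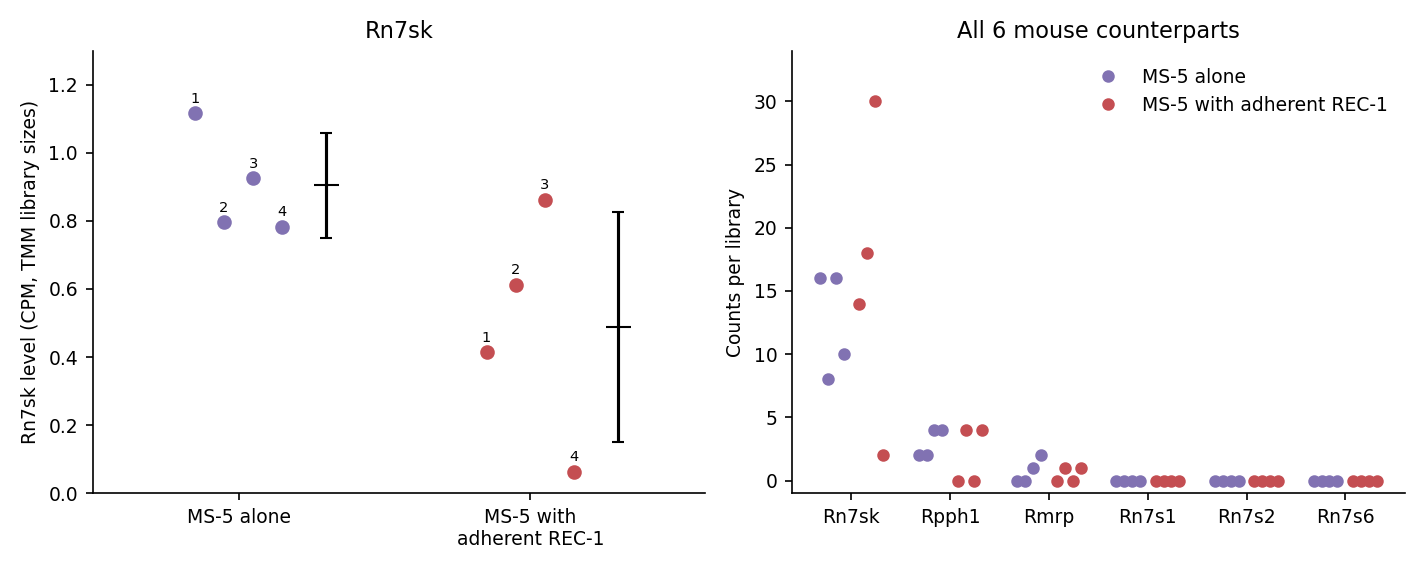
Left, Rn7sk in CPM for the 4 libraries of MS-5 cells alone and the 4 cocultures with adherent REC-1 cells, with replicate numbers and the mean ± SD. Right, counts per library of all 6 mouse counterparts, where Rn7sk has between 2 and 30, Rpph1 and Rmrp at most 4 and the 3 mouse 7SL genes 0.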

How the data were processed

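Poly(A)-selected RNA was sequenced from 12 REC-1 and 4 MS-5 libraries. The authors separated human from mouse reads with Xenome, aligned them with STAR 2.5.1b, keeping reads with 1 mapping place, and counted them on genes with featureCounts from Subread 1.5.2. The deposited values are counts per gene, whole numbers that were neither normalized nor filtered. The study describes them as fragments, but 74.8% of the 41532 human protein-coding values between 1 and 39 are even (9282 at 2 against 2171 at 1), as where both mates of a pair are counted, so counting error is larger than the counts alone give. The other 20 count columns, of samples outside these groups, were not used.

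Counts were fitted in R 4.3.3 with edgeR 4.0.16 (filterByExpr, TMM, quasi-likelihood F-test, Benjamini-Hochberg adjustment over all 12861 human or 12201 mouse genes). 1 model held the 3 REC-1 groups and another both MS-5 groups. As alternatives, results were recomputed with a replicate block, with DESeq2 1.42.0, with upper-quartile normalization and without a filter. Further fits used a minimum of 10 counts per library or thinned counts. Others summed the entries with RN7SL symbols, used Adh and Susp alone, or left out each library in turn. In simulated counts, 200 genes were changed by a log2 fold change of 1. Between Adh and Susp cells, 196 of them were recovered with 6 false calls over 12861 genes. The simulated mouse comparison over 12201 genes gave 199 with 4 false calls. These rates are for the changed genes as a set, and none is given for genes as variable as RN7SL2.

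Human counts per library were 7758979 to 21467832 and mouse counts 10097555 to 34615602, which puts the limit of 3 counts at 0.0867 to 0.387 CPM, or at 0.173 to 0.773 CPM if both mates were counted. Sequences and positions came from GENCODE releases 44 (GRCh38) and M21 (GRCm38), and 56948 of 58051 entries had a position. The authors used Ensembl annotation of the same builds. Identities came from global alignments in Biopython 1.88. The aligned sequences are not reported here.

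The members, lists and tests were chosen with earlier results of these data known. The genes named are the members, their mouse counterparts, the most abundant gene of each partner list, the histone entry with the most counts and the 3 genes most correlated with RN7SL2.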

Additional observations from a re-analysis of the deposited data

Results flagged for a closer look

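The summed level of replication-dependent histone genes had 1 library far from the others of its group. In Susp replicate 2 it was 110.1 CPM, and the other 3 Susp libraries were between 83.9 CPM and 87.7 CPM. This was 1 of 39 groups of 4 libraries examined for the members, counterparts and classes, and chance alone marks about 1 in 20 such groups. The cause was not tested.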

How the results depend on the processing

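The number of members called between Adh and Susp cells was 1, and it ranged from 0 to 1 over the 12 fits that left out 1 library each, with the 6 losses named beside the result. The 8 other alternatives kept it at 1, where 1 of them tested the sum of the entries with RN7SL symbols in place of RN7SL2. Called members stayed at 1 between Adh and Sep cells and at 0 between Susp and Sep cells over 19 alternatives each, and the mouse counterparts at 0 over 14. The log2 fold change of RN7SL2 ranged from -2.63 to -1.67 between Adh and Susp, from -2.76 to -1.79 between Adh and Sep and from -0.40 to 0.16 between Susp and Sep cells. The summed entries with RN7SL symbols had -1.32, -1.58 and -0.25. That of Rn7sk ranged from -1.32 to -0.53 over 12 alternatives that fitted it. Called partner genes stayed at 0.

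Libraries share replicate numbers across groups, and the labels do not say what a number marks. Deviations of same-numbered libraries from their group means correlated above 0.1 in 1 of 4 Adh and Susp pairs, 1 of 4 Susp and Sep pairs, 3 of 4 Adh and Sep pairs and 2 of 4 pairs of the MS-5 groups, so the numbers were not taken as pairs. With the replicate block, the called members were 1, 0 and 1, and RN7SL2 had log2 fold changes of -2.08, 0.01 and -2.06 between Adh and Susp, Susp and Sep, and Adh and Sep cells. In these comparisons and that of the MS-5 groups, 2, 1, 3 and 3 of 4 libraries correlated best with their own number. Depth limits the mouse counterparts with counts, at 0 to 30 per library, and the listed 0 of the other 4 human genes cannot be told apart from reads left unassigned.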
